A study of Mus musculus with 4 samples.

Results

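The genes described here build the cornified envelope, the protein shell that replaces the plasma membrane of a keratinocyte as it becomes a dead cell of the outer epidermis, or accompany that last stage of epidermal differentiation. Members were all mouse genes whose symbol begins with Sprr (small proline-rich proteins) or Lce (late cornified envelope proteins), and 15 named genes, from filaggrin (Flg), loricrin (Lor) and involucrin (Ivl) to the secreted proteins dermokine (Dmkn), Krtdap and suprabasin (Sbsn). The gene table used here held 53 such genes, of which 35 had a transcript in the files, among 17570 genes in all. Tumours were grown from SCC7, a mouse head and neck squamous carcinoma line, injected under the dorsal skin of wild-type C3H/HeN mice and taken on day 10. In the anti-CD71 group mice had been given an antibody against CD71, the transferrin receptor, on days 6 and 9; what the control mice received is not given in the labels. There were 2 anti-CD71 and 2 control libraries of bulk tumour RNA, with nothing in the labels to say how many animals each came from, so p-values measure only the spread between these libraries.

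Values are TPM, a transcript level corrected for length and scaled to the same total in each library, and a gene's value is the sum over its RefSeq transcripts. The number of reads behind a TPM is unknown here. Both controls and anti-CD71 replicate 2 were complete, with 59881 transcripts each. The file of anti-CD71 replicate 1 as analysed held 13586 transcripts, and a transcript beyond that part was treated as missing, not as 0. It listed 11 of the 46 transcripts of these genes, from 9 of the 35 genes. The other 26 genes could be described only in anti-CD71 replicate 2 and the controls.

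In stratified epithelium, basal keratinocytes divide, and cells that move outward switch to suprabasal keratins and then to envelope precursors. Transglutaminases crosslink involucrin, loricrin, the small proline-rich proteins and the late cornified envelope proteins to each other and to desmosomal proteins. Filaggrin bundles keratin in the same cells, while trichohyalin (Tchh) plays a related part in the inner root sheath of the hair follicle. Most of these genes lie side by side in the epidermal differentiation complex, while Lgals7, Sbsn, Dmkn and Krtdap lie on chromosome 7, Sfn on chromosome 4 and Casp14 on chromosome 10.

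The complex held 47 of the 53 genes, within 1.39 Mb of chromosome 3 from 92080271 to 93471980 in GRCm38.p6, starting at Lor and ending at Tchhl1. Of these 47 with a transcript, only Sprr1a was at 1 TPM or more in a control. Promoter windows of RefSeq (GRCm38.p6), from 250 bases before to 50 bases after each start, were searched for the letters TGANTCA, bound by AP-1 factors that drive many keratinocyte genes, and TATAAA, the TATA box, on both strands. The first was found in 18 of the 36 windows of members with a transcript, which belong to 34 genes, against 7.8% of all 32851 windows. The second was found in 16 of the 36, against 13.6% of all windows. By family, the AP-1 letters were in 6 of 9 Sprr windows and 0 of 10 Lce windows. The C/EBP letters TTGCNNAA were in 7 of the 36 windows against 10.8% of all, and the KLF letters CCACACCC in 2 against 3.6%. Neighbouring family members are copies of each other, so these windows are not independent of one another.

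Of the members at 1 TPM or more in any library, 4 held both the AP-1 letters and the TATA box, and their windows are shown with those letters in capitals, from 5′ to 3′ in the direction of the gene. They set Sprr1a, which was present in every library, beside 3 genes that were at 0 in both controls. The windows are chr3:92485832-92486131 (minus strand), chr7:30787655-30787954 (plus strand), chr3:93144539-93144838 (plus strand) and chr3:92083093-92083392 (minus strand).
Sprr1a: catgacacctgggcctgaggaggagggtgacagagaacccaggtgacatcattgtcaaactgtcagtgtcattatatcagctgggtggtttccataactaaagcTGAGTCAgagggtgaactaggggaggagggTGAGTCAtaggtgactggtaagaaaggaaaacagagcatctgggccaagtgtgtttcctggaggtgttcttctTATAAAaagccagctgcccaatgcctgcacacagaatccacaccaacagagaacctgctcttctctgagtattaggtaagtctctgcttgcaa
Krtdap: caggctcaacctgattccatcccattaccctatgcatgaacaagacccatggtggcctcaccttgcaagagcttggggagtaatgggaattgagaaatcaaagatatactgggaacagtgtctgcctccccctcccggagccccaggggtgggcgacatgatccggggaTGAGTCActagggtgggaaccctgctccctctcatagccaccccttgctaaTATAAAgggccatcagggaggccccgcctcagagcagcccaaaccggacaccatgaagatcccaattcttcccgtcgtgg
Crnn: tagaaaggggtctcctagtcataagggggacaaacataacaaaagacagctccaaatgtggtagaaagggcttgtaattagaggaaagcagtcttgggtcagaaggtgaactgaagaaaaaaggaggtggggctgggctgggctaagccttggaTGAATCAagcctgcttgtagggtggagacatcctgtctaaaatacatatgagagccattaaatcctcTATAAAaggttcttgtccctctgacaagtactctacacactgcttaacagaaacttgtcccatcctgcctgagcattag
Lor: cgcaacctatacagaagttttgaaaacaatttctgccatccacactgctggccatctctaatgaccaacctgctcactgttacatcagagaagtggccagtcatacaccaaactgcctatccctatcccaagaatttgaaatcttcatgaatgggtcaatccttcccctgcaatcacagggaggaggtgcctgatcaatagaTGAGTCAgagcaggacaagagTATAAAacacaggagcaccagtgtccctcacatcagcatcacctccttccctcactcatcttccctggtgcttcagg
Sprr1a held the AP-1 letters in 2 places and the other genes in 1. The same letters thus stood before a gene present in all libraries and before genes listed at 0 in the controls. A match describes these letters and shows no binding.

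Taken over all members, anti-CD71 replicate 2 held far more of these transcripts than the other complete libraries. Their summed level was 196.68 TPM in anti-CD71 replicate 2, against 26.81 and 29.68 TPM in the controls, a ratio of 6.96 to the control mean. Sprr1a made up 16.4% of the sum in anti-CD71 replicate 2, against 72.6% and 75.4% of it in the controls. Without Sprr1a the sums were 164.5 TPM in anti-CD71 replicate 2 and 7.34 and 7.29 TPM in the controls, a ratio of 22.5. These sums were not tested. In bulk tissue, more cells of a type and more RNA per cell cannot be told apart.

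Of the 35 genes, 34 were above both controls in anti-CD71 replicate 2, where 38.1% of all genes were, and 36.2% of those under 1 TPM in both controls. The exception was Sprr2k, listed at 0 in all 3 complete libraries. Both controls listed 25 of the 35 at 0. Of these, 24 were above 0 in anti-CD71 replicate 2, against 56.1% of all genes that were at 0 in both controls, and 4 reached 1 TPM, against 6.98%. At 1 TPM or more there were 10 members in anti-CD71 replicate 2, and 4 and 5 in the controls.

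**Figure D1:**
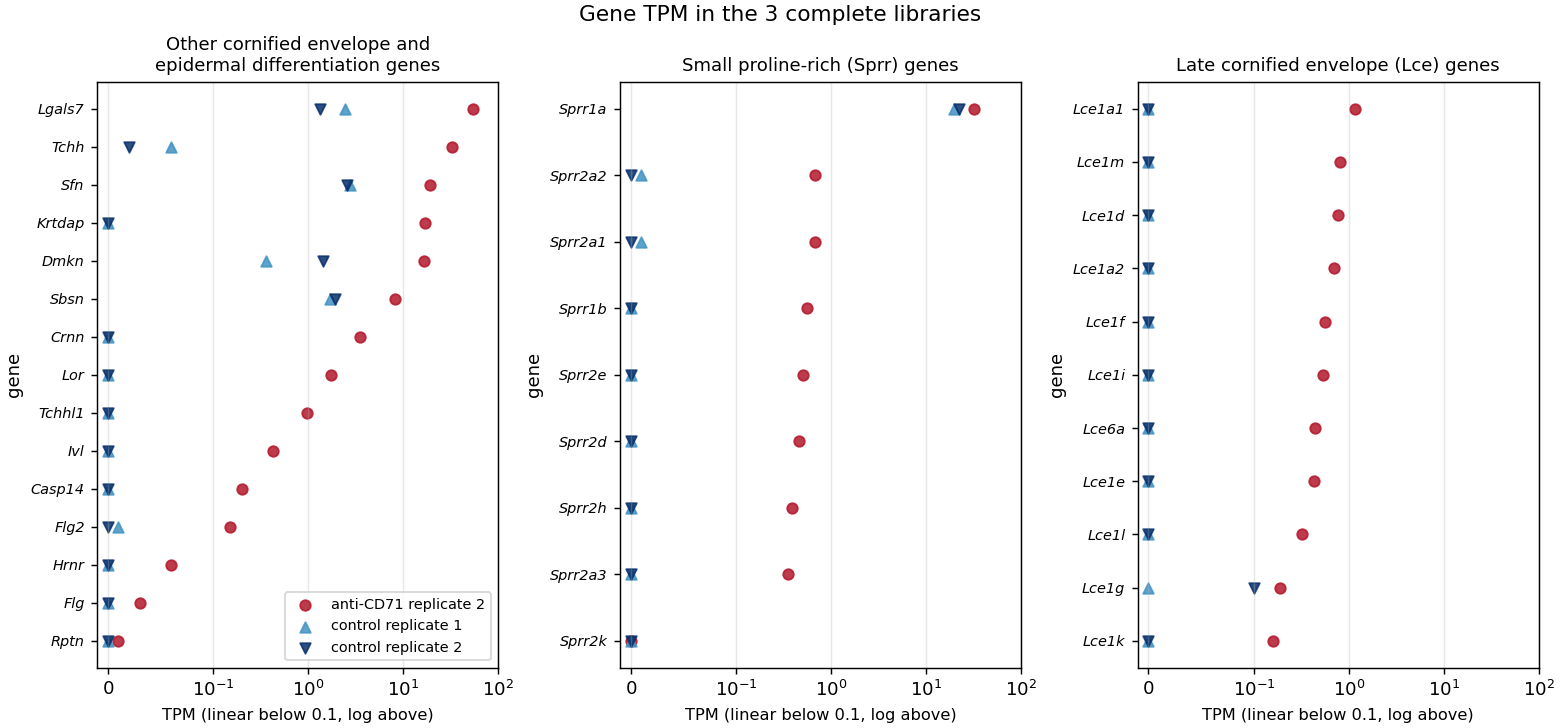
TPM of the 35 members with a transcript in the 3 complete libraries, by family, on an axis that is linear below 0.1 and logarithmic above. Anti-CD71 replicate 2 lies to the right of both controls for every gene but Sprr2k, and Sprr1a is the gene for which the 3 libraries lie closest together on the upper part of the axis.

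The listed transcripts of the other treated tumour did not show this. Without Sprr1a, they held only 29.84 of 164.5 TPM in anti-CD71 replicate 2, and Lgals7, Tchh and Sfn had none listed. Over the 9 genes listed for all 4 libraries, anti-CD71 replicate 1 was at 0 for 7, against 5 and 6 in the controls. It was above both controls for 1, where 26.6% of all genes with a listed transcript were above both controls in that library. Anti-CD71 replicate 2 was above both controls for all 9, where 33.4% of those genes were. Without Sprr1a, the listed transcripts summed to 1.49 TPM in the first anti-CD71 tumour and 29.84 TPM in the second, against 1.11 and 2.03 TPM in the controls. Of the 5 listed genes at 0 in both controls, 0 were above 0 in the first anti-CD71 tumour, where 33.4% of all such genes were, and 5 in the second, where 47.4% were. With 1 library on each side, the difference between the treated tumours has no test.

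Gene by gene, the listed transcripts show the same split. Krtdap, a secreted protein of differentiating keratinocytes, was at 0 and 6.11 TPM in anti-CD71 replicates 1 and 2, against 0 TPM in both controls, over the transcript that carries 35.6% of its level. Sbsn, secreted by suprabasal cells, was at 0 and 5.55 TPM in anti-CD71 replicates 1 and 2, against 0.74 and 0.61 TPM in controls, over its listed transcripts. These carry 58.8% of its level averaged over the complete libraries, but only 0.74 of 1.69 TPM and 0.61 of 1.9 TPM in the controls. Over listed transcripts both genes thus stood at 0 in one treated tumour and above both controls in the other, and for Sbsn the first treated tumour was the lowest of the 4 libraries. Lce1a1 was at 0 and 1.15 TPM, Tchhl1 (trichohyalin-like 1) at 0 and 0.97 TPM, Sprr2a1 at 0 and 0.68 TPM, and Lce6a at 0 and 0.44 TPM in anti-CD71 replicates 1 and 2, while no control exceeded 0.01 TPM for any of these 4. Hornerin (Hrnr), a filaggrin relative, was at 0 and 0.01 TPM over a transcript that carries 16.7% of its level, and at 0 in both controls.

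**Figure D2:**
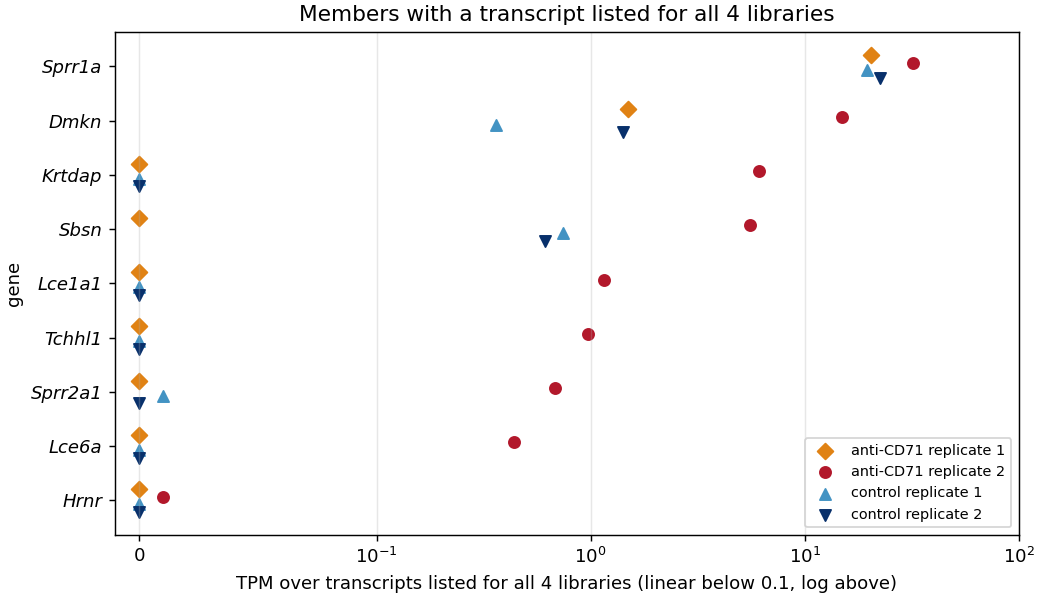
TPM over the transcripts listed for all 4 libraries, for the 9 members that have one, on an axis linear below 0.1 and logarithmic above. Anti-CD71 replicate 1 (diamonds) lies with the controls, at 0 for 7 genes, while anti-CD71 replicate 2 (circles) lies to their right for each gene.

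Dmkn and Sprr1a were the members that could be tested over 4 libraries, with at least 90% of their level listed and at least 1 TPM in 2 or more libraries. Dmkn, a secreted epidermal protein, was at 1.49 and 14.93 TPM in anti-CD71 tumours, against 0.36 and 1.42 TPM in controls, over transcripts that carry 91.5% of its level. Anti-CD71 replicate 1 lay just above the higher control and far below the other treated tumour. By limma with Benjamini-Hochberg adjustment over 1562 genes, Dmkn was not called (log2 change 1.80, SE 0.85, adjusted p = 0.239), and without anti-CD71 replicate 2 it was 0.46 (SE 0.38, adjusted p = 0.495). Without anti-CD71 replicate 1 it was 3.13. In that fit Dmkn met the filter only through control replicate 2 and the treated library in which it was high. The Dmkn value thus depends on which treated tumour is used.

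Sprr1a, a crosslinked envelope precursor also made by stressed and wounded epithelium, was by far the most abundant member in the controls. It stood at 20.43 and 32.18 TPM in anti-CD71 tumours, against 19.47 and 22.39 TPM in controls. Anti-CD71 replicate 1 fell between the controls and only anti-CD71 replicate 2 was above them. Sprr1a was not called either (log2 change 0.29, SE 0.21, adjusted p = 0.431 by limma), and without anti-CD71 replicate 2 the change was -0.030. Over 4 libraries limma called 0 of these 2 genes, with 0 of the 2 at an unadjusted p under 0.05, while of all tested genes 0.832% were called higher and 4.29% in either direction.

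Over 3 libraries, anti-CD71 replicate 2 against both controls, 5 of the 35 members passed the filter on low values, and 4 of these 5 rose, where 0.476% of the 11979 tested genes were called higher and 2.86% in either direction. With 1 treated library, its spread was taken to equal that of the controls, and the errors below rest on the controls alone. Where all 4 libraries could be compared, log2 differences over 1562 genes had an SD of 0.29 between anti-CD71 tumours and 0.22 between control tumours. That value over all genes does not hold for each member. Over listed transcripts, Dmkn was at 1.49 and 14.93 TPM in anti-CD71 tumours, against 0.36 and 1.42 TPM in controls. The errors of the calls may therefore be too small for such genes. The other 30 members did not reach 1 TPM in 2 libraries and were not tested. Of these, 25 were under 1 TPM in each complete library, anti-CD71 replicate 2 included.

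Lgals7, galectin-7, a lectin of stratified epithelia, rose to 53.98 TPM in anti-CD71 replicate 2, against 2.46 and 1.32 TPM in controls, and was the most abundant member there (log2 change 4.28, SE 0.25, adjusted p = 0.00803 by limma). Sfn, which encodes 14-3-3 sigma, a regulator of the epithelial cell cycle, rose to 19.35 TPM, against 2.74 and 2.53 TPM in controls (log2 change 2.49, SE 0.14, adjusted p = 0.00677 by limma). The controls lay close to each other for Sfn and further apart for Lgals7. Neither gene had a transcript listed for anti-CD71 replicate 1.

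Dmkn rose over all its transcripts to 16.48 TPM in anti-CD71 replicate 2, against 0.36 and 1.42 TPM in controls (log2 change 3.27, SE 0.36, adjusted p = 0.0289 by limma). Sbsn rose to 8.14 TPM, against 1.69 and 1.9 TPM (log2 change 1.71, SE 0.17, adjusted p = 0.0251 by limma). Both genes thus passed here, while their listed transcripts were at or below control level or just above it in anti-CD71 replicate 1. With control replicate 1 under 1 TPM, Dmkn met the filter only through control replicate 2 and the treated library in which it was high. Sprr1a did not pass (log2 change 0.60, SE 0.12, adjusted p = 0.0691 by limma). These calls depend on the processing. The Dmkn call was lost with a pseudocount of 0.1 TPM (adjusted p = 0.0557) and without the intensity trend of limma (adjusted p = 0.103). Admitting genes with 1 TPM in 1 library kept Sfn (adjusted p = 0.0441) but not Lgals7 (adjusted p = 0.0894), Dmkn (adjusted p = 0.15) or Sbsn (adjusted p = 0.0829), and with no filter limma called 0 of 34 members and 0 of all genes.

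**Figure D3:**
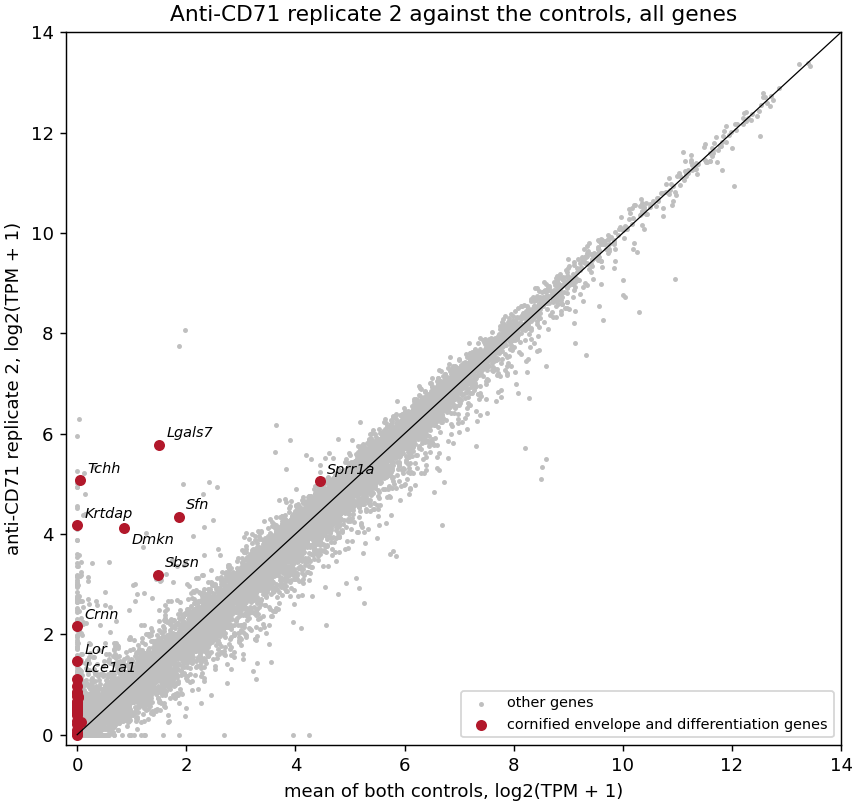
Each gene's level in anti-CD71 replicate 2 against the mean of both controls, as log2(TPM + 1), with members in red and the line of equal level in black. Sprr1a lies near the line at about 20 TPM in controls, while Lgals7, Sfn, Dmkn and Sbsn lie above it and Tchh, Krtdap, Crnn and Lor lie above it at the left edge.

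Of the members that were at or near 0 in the controls, Tchh was the most abundant. It stood at 32.6 TPM in anti-CD71 replicate 2, against 0.06 and 0.02 TPM in controls, and ranked just above Sprr1a. Krtdap was at 17.16 TPM over all transcripts, cornulin (Crnn), a relative of filaggrin, at 3.5 TPM and Lor, the main envelope protein of epidermis, at 1.75 TPM, each against 0 TPM in both controls. These genes were too low in the controls for the filter, and a fold against a listed 0 is not given. Where genes with 1 TPM in 1 library were admitted, Tchh and Krtdap passed with Sfn (adjusted p = 0.0308 for both), where 0.482% of all tested genes were called higher, but they entered that test only through the library in which they were high.

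Other classical markers of terminal differentiation were much lower in the same library. Ivl stood at 0.42 TPM in anti-CD71 replicate 2, the epidermal protease gene Casp14 at 0.2 TPM and Flg at 0.03 TPM, each against 0 TPM in both controls. Flg2 was at 0.15 TPM, against 0.01 and 0 TPM. Repetin (Rptn) was the lowest member above 0, at 0.01 TPM against 0 TPM in controls. The filaggrin family therefore ran from 0.01 to 32.6 TPM within 1 library, with Tchh and Crnn at 1 TPM or more and Tchhl1, Flg2, Hrnr, Flg and Rptn below it.

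Within the Sprr family 9 of 17 genes had a transcript, and levels were uneven. Sprr1a at 32.18 TPM stood far above Sprr1b, its close relative and near neighbour, at 0.56 TPM in anti-CD71 replicate 2; Sprr1b was at 0 TPM in both controls. The Sprr2 genes with a transcript ran from 0 TPM for Sprr2k to 0.68 TPM for Sprr2a1 and Sprr2a2 in anti-CD71 replicate 2, and none exceeded 0.01 TPM in a control. Values of Sprr2a1, Sprr2a2 and Sprr2a3 are uncertain, since 92.5%, 92.8% and 36.2% of their 100-base stretches of GENCODE transcript sequence occur unchanged in another member, so that quantification could split reads between the copies. Outside these 3 genes no member with a transcript shared over 4.9% of its stretches, and 24 of the 35 shared none.

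The Lce family, late envelope proteins of the upper granular layer, had 11 of 21 genes with a transcript. All 11 were above both controls in anti-CD71 replicate 2, at 0.16 to 1.15 TPM with a median of 0.54 TPM, against 0 TPM in both controls for 10 of them. Lce1g was the exception, at 0.19 TPM against 0 and 0.1 TPM. The highest was Lce1a1 at 1.15 TPM, and the family together held 6.07 TPM, against 0 and 0.1 TPM in controls. In all, 25 members were under 1 TPM in each complete library, at 0 to 0.97 TPM in anti-CD71 replicate 2 and at 0 to 0.1 TPM in controls, levels at which an unknown read depth weighs most.

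The other 18 genes of the rule had no transcript in the files used here and were not analysed: Sprr2b, Sprr2c-ps, Sprr2f, Sprr2g, Sprr2i, Sprr2j-ps, Sprr3, Sprr4, Lce1b, Lce1c, Lce1h, Lce1j, Lce3a, Lce3b, Lce3c, Lce3d, Lce3e and Lce3f. Each Lce3 gene is among them, and each Lce gene with a transcript belongs to the Lce1 group or is Lce6a.

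**Figure D4:**
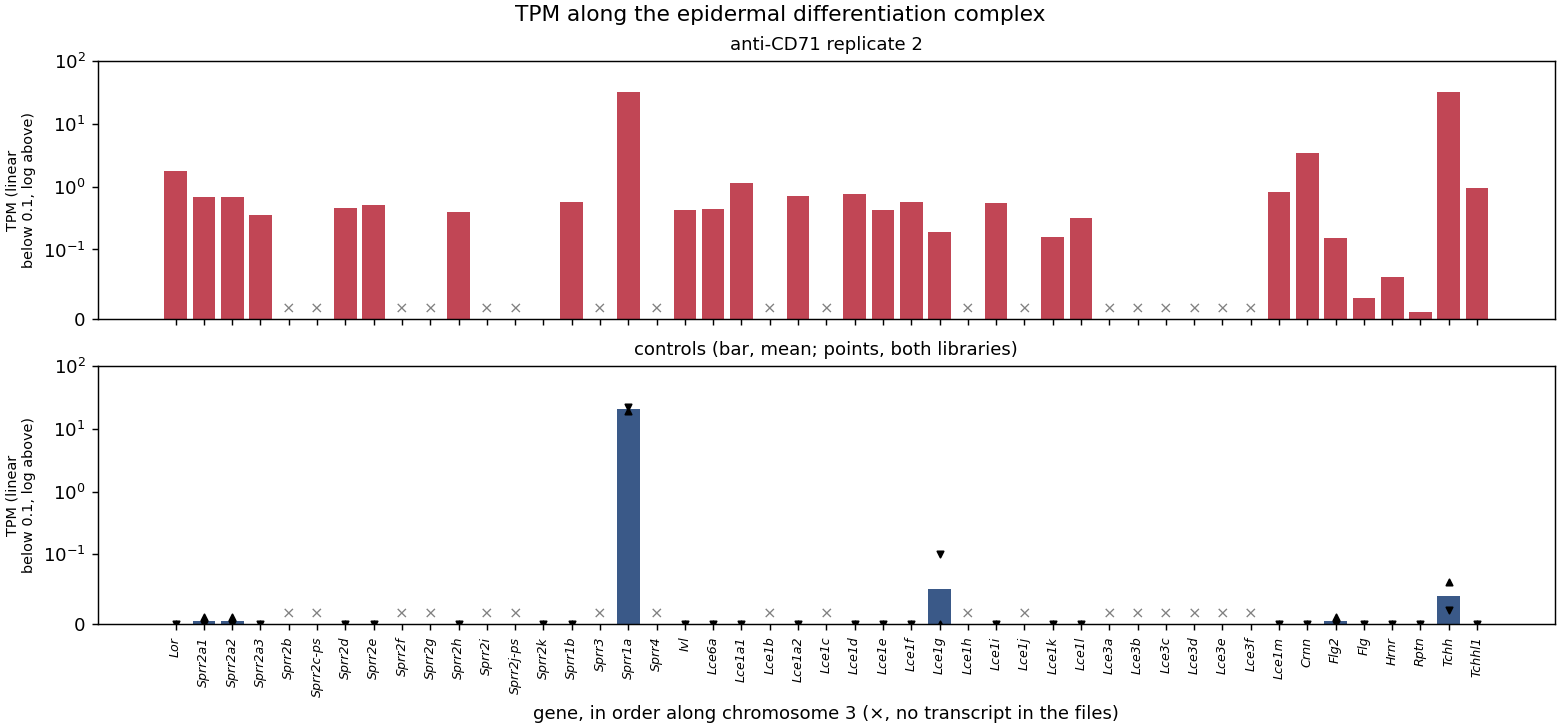
TPM of the 47 genes of the epidermal differentiation complex in their order along chromosome 3, in anti-CD71 replicate 2 (upper) and in the controls (lower), on an axis linear below 0.1 and logarithmic above; a cross marks a gene with no transcript in the files. In anti-CD71 replicate 2 nearly every gene with a transcript is above 0, with peaks at Sprr1a and Tchh, while in the controls only Sprr1a is above 0.1 TPM.

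By position, members on chromosome 3 summed to 81.37 TPM in anti-CD71 replicate 2, against 19.56 and 22.51 TPM in controls. The 4 members on chromosome 7 summed to 95.76 TPM, against 4.51 and 4.64 TPM. The chromosome 7 members thus summed to more than the chromosome 3 members in that library and to less in the controls. Among other genes of the complex, S100a3, a calcium-binding protein of the hair cuticle, rose (31.02 TPM against 2.75 and 2.88 TPM in controls; log2 change 3.07, SE 0.12, adjusted p = 0.00287 by limma), as did Crct1 (6.02 TPM against 1.23 and 1.06 TPM; log2 change 1.71, SE 0.19, adjusted p = 0.0289 by limma). S100a16 did not pass (log2 change -0.27, adjusted p = 0.293). Crct1 could also be read in anti-CD71 replicate 1, where it stood at 0.99 TPM, below both controls.

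Genes that act with the envelope were counted over the same 3 libraries. In the list of crosslinking enzymes and desmosomal scaffold proteins 10 of 10 genes found were above both controls in anti-CD71 replicate 2, but 0 of 3 tested passed, with the plakin gene Ppl at a log2 change of 0.48 (adjusted p = 0.121 by limma) and the transglutaminase gene Tgm1 at 0.21 (adjusted p = 0.564). Of the proteases and inhibitors that govern shedding, 11 of 14 were above both controls, with a sum of 44.21 TPM against 22.27 and 28.13 TPM. Among those too low to test, the protease gene Asprv1 was at 3.77 TPM against 0.1 and 0.05 TPM and Serpinb5 at 3.37 TPM against 0 TPM in both controls. Of 4 tested 0 passed, with Klk8 at 0.28 (adjusted p = 0.184) and Cst6 at 0.23 (adjusted p = 0.4). Of the genes for barrier lipids, 7 of 12 were above both controls, with a sum of 158.29 TPM against 173.96 and 165.92 TPM, and 0 of 4 tested passed, with Elovl1 at -0.14 (adjusted p = 0.338). Median log2 changes over the tested genes of the 3 lists were 0.21, 0.26 and -0.13 against -0.01 over all tested genes.

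Transcription factors of keratinocyte differentiation were mixed, with 8 of 15 above both controls in anti-CD71 replicate 2 and a sum of 199.78 TPM, against 273.99 and 301.05 TPM. Of the 7 abundant enough to test, 0 rose and 2 fell, where 2.39% of all tested genes were called lower. Klf4 fell, a factor needed for the skin barrier and also made by myeloid cells (77.62 TPM against 126.83 and 123.63 TPM; log2 change -0.68, adjusted p = 0.0289 by limma). Cebpb (log2 change -0.54, adjusted p = 0.133) and Maf (0.20, adjusted p = 0.324) did not pass. Most factors too low in the controls to test were higher in anti-CD71 replicate 2, and those named here were chosen after their values were seen. The epithelial master regulator Trp63 was at 1.35 TPM against 0.18 and 0.32 TPM, and Grhl1 at 1.8 TPM against 0.11 and 0.17 TPM. Ovol1 was at 1.14 TPM against 0.26 and 0.37 TPM, and Zfp750 at 1.46 TPM against 0.08 and 0 TPM. Elf3 was not higher, at 0 TPM against 0 and 0.14 TPM. Zfp750 was listed for anti-CD71 replicate 1 too, at 0.02 TPM, between the controls.

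The libraries' defining markers bear on what tissue these values describe. The basal squamous keratins were at or near 0 in the controls, with Krt5 at 31.4 TPM in anti-CD71 replicate 2 against 0 TPM in both controls and Krt14 at 36.37 TPM against 0.09 and 0.1 TPM. The epithelial adhesion gene Epcam was at 1.3 TPM, against 0.1 and 0.2 TPM. Perp, at 19.9 TPM against 0.07 TPM in both controls, and Dsp, at 5.34 TPM against 0.07 and 0.06 TPM, were near 0 in the controls too. Both are on the same squamous tumour epithelium list. The rest of that list included genes close to as high or higher in the controls. Among the integrins, Itga6 was at 44.65 TPM against 44.58 and 47.12 TPM and Itgb4 at 76.46 TPM against 93.68 and 87.43 TPM. Plakoglobin (Jup) was at 9 TPM against 9.77 and 13.42 TPM, and E-cadherin (Cdh1) at 2.46 TPM against 2.15 and 1.79 TPM. The list thus split, with 7 of its 10 genes above both controls and Krt5 and Krt14 setting the largest differences. The simple epithelial keratins Krt8 (1255.9 TPM against 1132.27 and 1202.77 TPM) and Krt18 (893.37 TPM against 657.36 and 680.49 TPM) were abundant in all 3, while Krt7 and Krt19 were under 1 TPM in each. Of the keratins that mark a squamous cell, Krt5 and Krt14 were thus at or near 0 in the control tumours. The wound keratin Krt16 (2.37 and 1.46 TPM) and the suprabasal Krt80 (6.2 and 4.91 TPM) were above 1 TPM there, as exceptions on their lists. No other basal or wound keratin exceeded 0.14 TPM in a control (Krt17), and no other suprabasal keratin exceeded 0.08 TPM (Krt78).

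Markers of normal skin and hair were higher in the same library as the members. Without Tchh, the hair follicle list was above both controls in anti-CD71 replicate 2 for 14 of 14 genes, with a summed level of 245.87 TPM, against 3.61 and 4.56 TPM, and 7 genes at 0 in both controls; S100a3 is on this list too. The inner root sheath keratin Krt71 was at 77.12 TPM against 0.06 and 0 TPM, and Krt25 at 60.54 TPM against 0 TPM in both. Over the 5 hair genes listed for all 4 libraries, the first anti-CD71 tumour was above both controls for 0 and summed to 0.52 TPM, and the second to 82.88 TPM, against 0.5 and 1.55 TPM in controls. The listed hair genes therefore split the treated tumours in the way the listed members did.

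Basal and wound keratins summed to 116.87 TPM in anti-CD71 replicate 2 against 2.55 and 1.7 TPM in controls, with 7 of 7 genes above both controls. Suprabasal keratins summed to 16.57 TPM against 6.28 and 5.07 TPM, with 4 of 5 above. The melanocyte list was at 4.75 TPM against 0.23 and 0.19 TPM, with 6 of 7 above and Slc45a2 at 0 TPM in anti-CD71 replicate 2. The sebaceous gland list was at 49.89 TPM against 42.34 and 46.25 TPM, with 6 of 7 above, and the adipocyte list at 127.34 TPM against 80.37 and 105.84 TPM, with 8 of 8 above. Skeletal muscle genes were between the controls in sum, at 106.95 TPM against 174.83 and 43.13 TPM, and of 8 tested 0 passed. Fibroblast genes were above both controls for 0 of 8, at 786.4 TPM against 868.7 and 1216.4 TPM, with Pdgfra fallen (log2 change -0.64, adjusted p = 0.0322 by limma). The stress and calcium sensors of suprabasal layers were above both controls for 6 of 6 genes, at 8.96 TPM against 0.43 and 0.17 TPM, with 0 tested. The list for squamous tumour epithelium summed to 228.23 TPM against 150.69 and 150.51 TPM, with 0 of 4 tested called. The mucosal squamous keratins had 1 gene found, at 0.16 TPM against 0.03 and 0 TPM. The part of these other cell types in the members' values was not tested.

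Of these lists, limma called Krt16, a wound keratin (log2 change 1.53), Krt18 (0.42) and the adipocyte gene Cfd (2.76) higher in anti-CD71 replicate 2. Cfd was at 15.32 TPM there, against 1.9 and 0.99 TPM in controls. It met the filter only through control replicate 1 and the treated library in which it was high. Krt16 was listed for all 4 libraries, at 3.69 and 7.31 TPM in anti-CD71 tumours against 2.37 and 1.46 TPM in controls, and did not pass there (log2 change 1.12, SE 0.31, adjusted p = 0.109). Like Dmkn, it was above both controls in both treated tumours.

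The listed neutrophil genes did not follow the members in sum. S100a9, a neutrophil protein that inflamed keratinocytes make too, stood at 142.39 and 183.5 TPM in anti-CD71 tumours, against 3.67 and 0 TPM in controls, over its listed transcripts. The 4 listed neutrophil genes summed to 154.63 and 196.79 TPM in anti-CD71 tumours and 4.5 and 1.34 TPM in controls, and 3 of the 4 were above both controls in each treated tumour. Over 3 libraries S100a9 (log2 change 5.88, adjusted p = 0.0057 by limma) and S100a8 (6.09, adjusted p = 0.0207) rose. The other neutrophil genes tested, Csf3r (log2 change 0.40) and Mmp9 (-0.078), did not pass. In the listed sum, most of which was S100a9 in the treated tumours, both treated tumours were above both controls. For the listed transcripts of the members without Sprr1a, one treated tumour was at control level and the other above it.

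**Figure D5:**
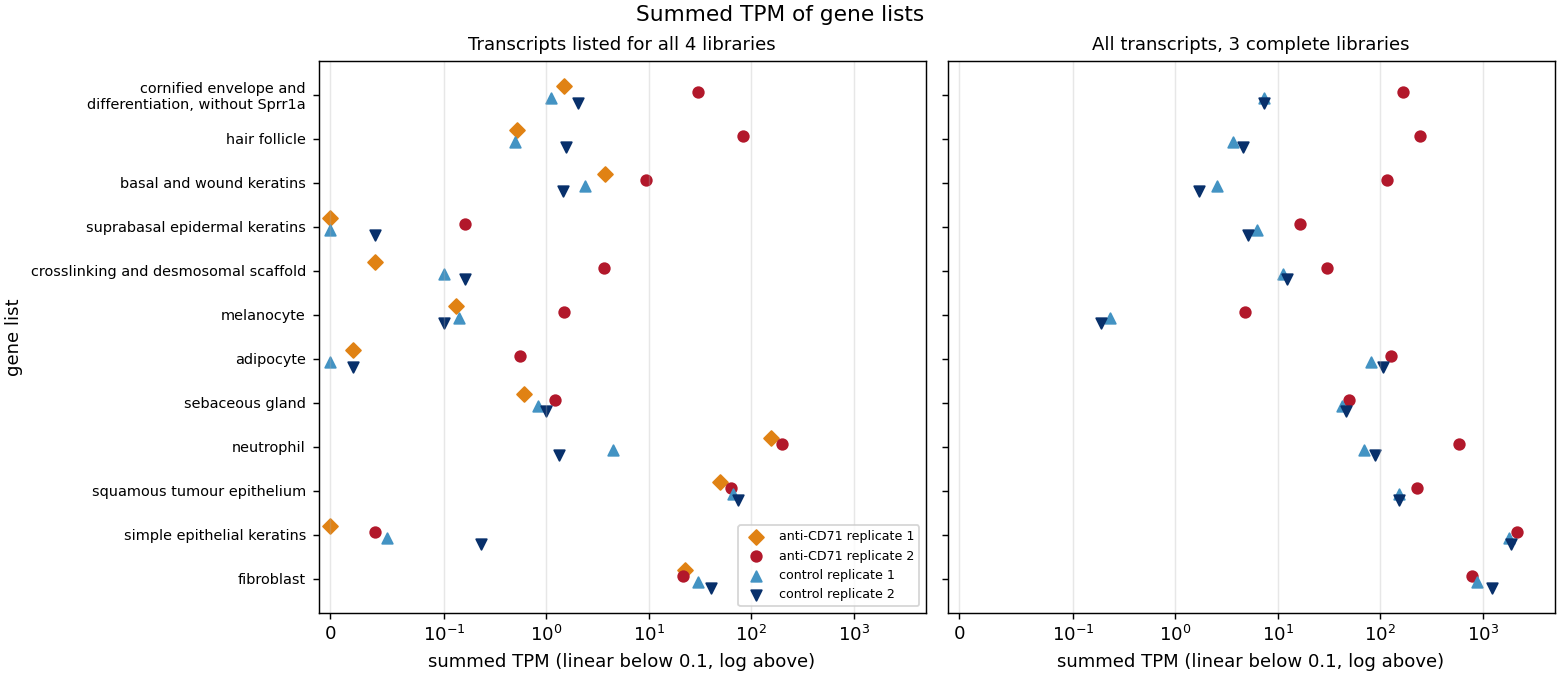
Summed TPM of the members without Sprr1a and of 11 gene lists, over transcripts listed for all 4 libraries (left) and over all transcripts of the complete libraries (right), on an axis linear below 0.1 and logarithmic above. On the left, anti-CD71 replicate 1 lies with the controls for the members (1.49 TPM) and the hair follicle list (0.52 TPM) and with anti-CD71 replicate 2 for the neutrophil list (154.63 TPM).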

How the data were processed

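Bulk RNA from 2 anti-CD71 and 2 control SCC7 tumours was measured by RNA sequencing. RNA was extracted with TRIZOL and libraries were made by BGI, per the labels' protocols. The authors deposited TPM per RefSeq transcript, to 2 decimals; complete libraries summed to 999998.88 to 1000000.86. Per the submitters' processing notes, GRCm38.p6 served as the build. Which aligner and which program gave the TPM is not given in the sources used here. Since depth cannot be read from TPM, it is unknown.

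The file of anti-CD71 replicate 1 ended inside a line after 13586 transcripts (22.7%). Transcripts were matched to symbols through a RefSeq table of the same build (58417 matched), and TPM was summed per gene. Genes were compared as log2(TPM + 1) by limma (version 3.58.1, R version 4.3.3) with variances following mean level (intensity trend), on genes with at least 1 TPM in 2 libraries, Benjamini-Hochberg adjusted over all genes tested and called under 0.05; fold changes on this scale understate those of low genes. Over 4 libraries, a gene entered if its listed transcripts held 90% of its TPM. The fit was also run on simulated data, and the outcome is not reported here. Members with 1 TPM in any library were named with all values, other members by range and count; lower members named singly were chosen after their values were seen. From other lists, called genes and up to 2 others by mean TPM were named, except 2 genes not reported here. Members, lists and limits were chosen with earlier results of these data known. Replicate numbers were not taken to pair the samples. Alternatives covered the pseudocount, filter, scaling, variance trend, listed share and each library left out.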

Additional observations from a re-analysis of the deposited data

How the results depend on the processing

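Over 3 libraries, Lgals7, Sfn, Dmkn and Sbsn stayed called under a pseudocount of 0.5 TPM and with values shifted to a common median. Dmkn was lost with a pseudocount of 0.1 TPM and without the intensity trend. With a filter of 1 TPM in 1 library Sfn was kept, while Lgals7, Dmkn and Sbsn were lost. Tchh and Krtdap were called with that filter, but entered only through anti-CD71 replicate 2. With no filter, limma called 0 members and 0 of all genes. Members at 0 in both controls entered that fit only through anti-CD71 replicate 2. With no spread between the controls, their unadjusted p-values carry no weight and are not counted. All genes called numbered 343, against 72 with the filter of 1 TPM in 1 library, 227 (38 higher, 189 lower) with a common median and 35 without the trend. The ratio of summed TPM was 6.96, 6.63 to 7.34 with 1 control left out, and 22.5 without Sprr1a, an alternative chosen after seeing the data. Over 4 libraries, 0 members were called under each setting that kept all 4. Leaving out anti-CD71 replicate 1 moved the log2 change of Dmkn from 1.80 to 3.13. Dmkn met the filter of that fit only through control replicate 2 and the treated library in which it was high. All genes called numbered 67, against 1 with no filter, 8 with the filter of 1 TPM in 1 library, 4 without the trend, 4 with any listed transcript, and 1 to 95 with 1 library left out (1 without control replicate 1, 2 without control replicate 2, 33 without anti-CD71 replicate 2). With any listed transcript, chosen after seeing the data, it was 0 without anti-CD71 replicate 2 (709 at an unadjusted p under 0.05) and 1 without anti-CD71 replicate 1. The log2 change of Sprr1a was 0.29, and -0.030 to 0.60 with 1 library left out; it turned to -0.030 without anti-CD71 replicate 2, also with any listed transcript. With the replicate number as a block, 3 genes and 0 members were called. The deviations of same-numbered libraries correlated at -0.0056 over 1562 genes, and the libraries were not treated as pairs. With 1 difference in each group, this value cannot exclude a link between same-numbered libraries. The cause of these changes was not tested.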
